A study of Arabidopsis thaliana with 20 samples.

Results

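A group of 16 probe sets was lowest after 7 h of darkness in both roots and rosettes of Arabidopsis thaliana, and this pattern is described here in air and under water. They were chosen by measured values: the group mean at 7 h of darkness lay at least 0.8 log2 units below the mean in light at 0 h and also below the mean at 24 h of darkness, in roots and in shoots. The rule found 16 of 22746 probe sets that are not array controls. It was met by 161 probe sets in roots and 230 in shoots, so the 16 were 9.94% of the root set and 6.96% of the shoot set. The 12 arrays of plants in air chose them, so their values in light and darkness are a description, while the 8 arrays of submerged plants took no part in the choice.

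All plants were of accession Col-0 with a rosette of 9 to 10 leaves, grown in soil at 20 °C with 9 h of light a day. One set of groups came from plants harvested in light at 0 h, another from plants kept in air in a dark chamber for 7 or 24 h, and the last from plants held completely under water in that dark chamber for 7 or 24 h. Roots and shoots (rosette leaves) were harvested separately, giving 10 groups of 2 Affymetrix ATH1 arrays from 2 independent replicate experiments. The design text calls the RNA of each organ a pool, without a number of plants. Light controls were watered daily and dark controls every other day. Treatments began 2 h into the light period. The 7 h harvest therefore fell 9 h after lights had come on, when the light period would have ended, and the 24 h harvest fell at the clock time of the start. Hours spent in darkness and the time of day cannot be told apart between 7 and 24 h in this design. In RNA from whole organs, fewer cells of a type and less RNA per cell cannot be told apart either.

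Plants carry a circadian clock, a loop of transcription factors that repress one another in turn over the day. Some of its genes and many of their targets are most active around dawn and least active towards evening, while others, such as GIGANTEA, peak late in the day. The clock goes on running for some time in constant darkness, and roots have a clock of their own that is influenced by the shoot. With 3 harvest times no rhythm can be established from these arrays.

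Values are log2 expression values made with RMA, in which a difference of 1 is 2-fold, and they ran from 2.83 to 15.02 over all probe sets, with array medians of 6.13 to 6.41. The median SD between the 2 arrays of a group was 0.14 over the 16 probe sets and the 10 groups, and the largest was 0.87. A low-value filter, a value over 6 on 2 arrays or more, was passed by all 16 and by 15129 probe sets altogether. It says little about the 7 h values, since the rule asks for higher values in light and at 24 h of darkness. On every 7 h array 261569_at, 256266_at, 252917_at and AT4G15430 lay below 6, so they passed through their other arrays. The root genes PYK10, whose enzyme cleaves stored glucosides in roots, and EXPA7, a root hair expansin, checked the tissue labels. PYK10 lay between 9.72 and 13.23 on the 10 root arrays and between 7.99 and 9.48 on the 10 shoot arrays, and EXPA7 lay between 6.60 and 9.88 against 4.25 and 5.02, without overlap. No listed shoot marker had a probe set naming 1 gene.

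Only 4 of the 16 could be named, and 12 are given by their probe set number because the probe table used here does not list them. AT4G15430 belongs to the OSCA family of osmotically gated calcium channels, and AT3G52920 encodes a protein of the DUF662 family, whose function is not known. AT3G02910 encodes a protein with the fold of gamma-glutamyl cyclotransferases, resembling the pathogen-induced protein AIG2, and AT4G30450 encodes a glycine-rich protein. All 16 probe set numbers end in the plain suffix that marks probes designed to match a single gene.

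The smallest of the 4 differences that define a member ranged widely. It was 3.31 for 261569_at, the probe set with the deepest trough, then 2.64 for 266719_at and 2.57 for 256266_at. The members nearest the limit were AT4G30450 at 0.96, 258133_at at 0.92 and 261576_at at 0.88. Just outside stood AT5G15950, an S-adenosylmethionine decarboxylase gene of polyamine synthesis, at 0.79, then 263779_at at 0.79 and 258723_at at 0.78. Without replicate 1 of dark roots at 7 h the rule took in 25 probe sets, all 16 among them. Leaving out any other array in air gave 15 to 18, and the probe sets lost in turn were 246522_at, 248607_at, 258133_at, 260693_at and 261576_at. The same 5 failed when the rule was asked of each replicate number on its own, which 11 met.

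**Figure D1:**
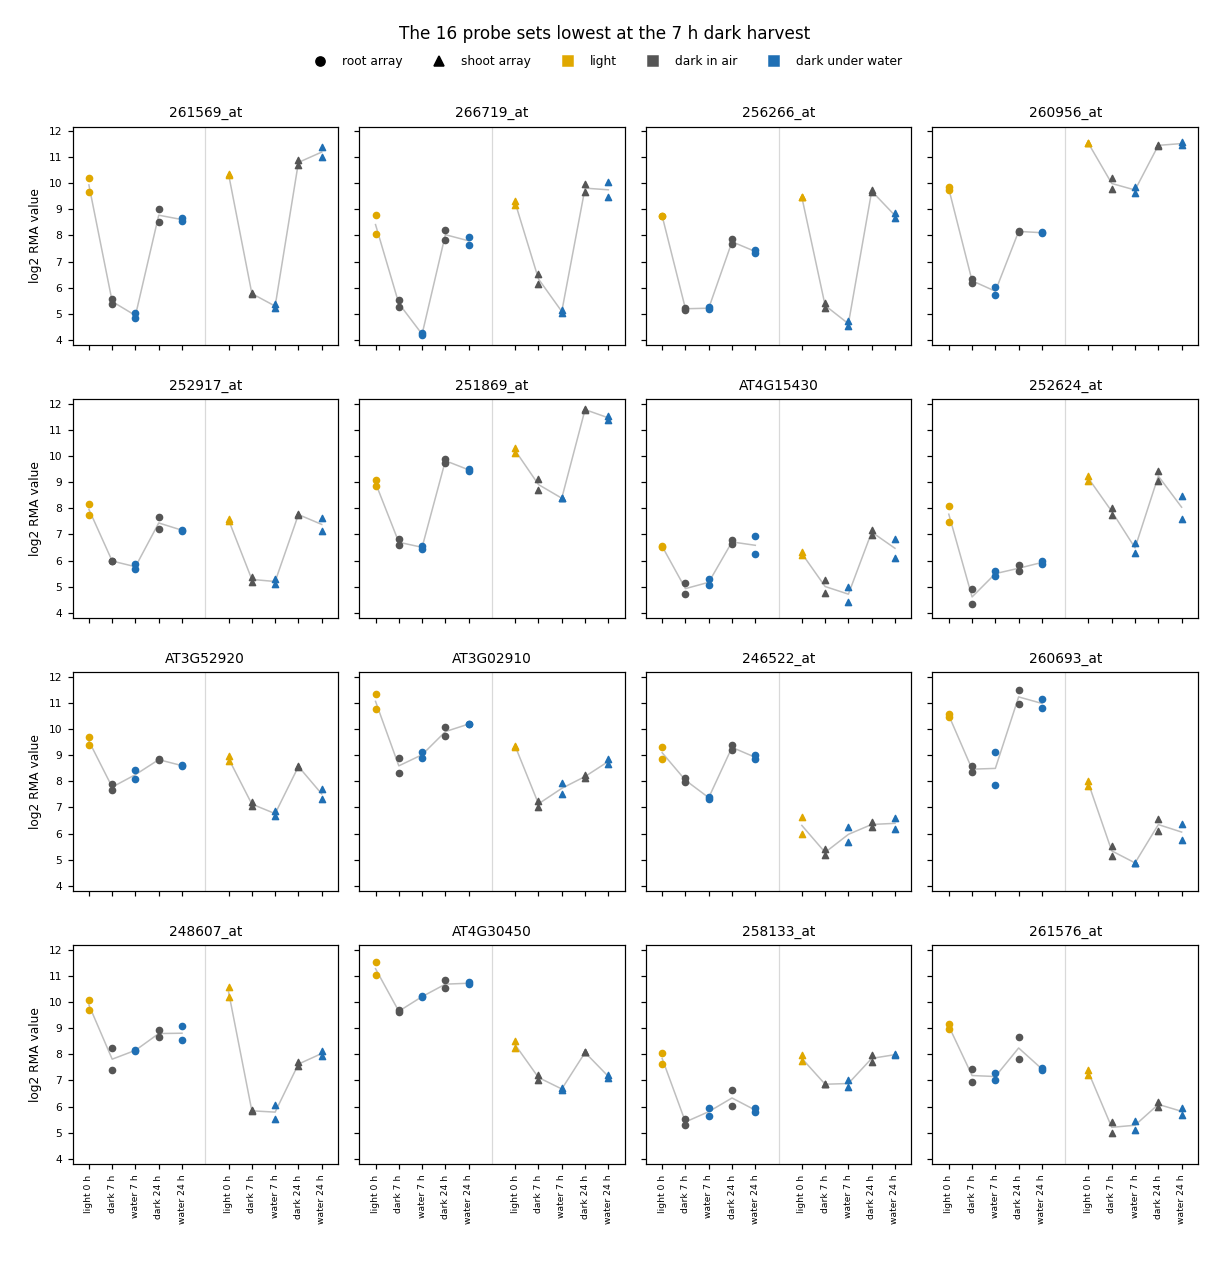
Each panel shows 1 probe set, with the log2 RMA value on the vertical axis and the 5 conditions in roots (circles) and shoots (triangles) on the horizontal axis; points are single arrays, 2 per group, and the grey line joins group means. Values at 7 h are low in air and under water in most panels, and 261569_at climbs from 5.20 and 5.38 at 7 h to 11.02 and 11.37 at 24 h in submerged shoots.

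Under water 10 of the 16 probe sets were called higher at 24 h than at 7 h in both organs, against 1.87% of all probe sets. This comparison uses submerged arrays alone. All 16 differences were positive in roots and all 16 in shoots. In roots 11 of 16 passed the test as higher, against 5.7% of all probe sets, and in shoots 14 of 16 passed, against 8.78%. Lower values at 24 h were called for 0 of the 16 in either organ with limma, against 8.08% of all probe sets in roots and 9.26% in shoots. At an unadjusted p under 0.05 it was also 0 of the 16, and no share of all probe sets was counted at that threshold. The median change was 1.41 in roots and 1.66 in shoots, where the median over all probe sets was 0.02 and 0.01. The 2 arrays at 24 h lay above both arrays at 7 h for 15 of the 16 in roots, against 29.5% of all probe sets, and for 15 in shoots, against 28.1%.

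Besides the 10 called in both organs, a single probe set was called in roots alone, 4 in shoots alone and 1 in neither. The share of all probe sets called in 1 organ alone was not counted, so these smaller counts have nothing to be read against. Leaving out any of the 4 submerged root arrays left 10 called in roots, and leaving out a submerged shoot array left 12 or 13 in shoots. The probe sets that met the rule in a single organ give a frame for these counts. Of 145 that met it in roots only, 56 were called higher at 24 h under water in roots (38.6%), with a median change of 0.47. Of 214 that met it in shoots only, 165 were called higher in shoots (77.1%), with a median change of 1.09. The difference between these shares and those of the 16 was not tested.

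The probe set 261569_at had the widest swing of all 16. Its shoot arrays read 10.37 and 10.32 in light, 5.75 and 5.79 after 7 h of darkness, and 10.88 and 10.72 after 24 h. Under water they read 5.20 and 5.38 at 7 h and 11.02 and 11.37 at 24 h. The low and high groups are far apart, and the submerged arrays at 24 h stand above every light and dark array. The rise under water was 5.90 (SE 0.18, adjusted p = 7.6e-13), or 59.9-fold. In roots its arrays read 10.19 and 9.68 in light, 5.39 and 5.55 in darkness at 7 h, and 8.52 and 9.03 at 24 h. Under water the root arrays read 4.84 and 5.02, then 8.65 and 8.56, a rise of 3.68 (SE 0.18, adjusted p = 1.3e-09). Root values at 24 h thus stayed below light in air and under water, while shoot values did not. In both organs the submerged 7 h arrays of 261569_at, 266719_at and 256266_at lay below the lowest array median, 6.13. The sizes of their rises therefore rest on low values at 7 h.

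The probe set 266719_at fell lower under water than in air at 7 h in both organs. In roots it read 5.51 and 5.27 in dark air and 4.18 and 4.24 under water, and in shoots 6.16 and 6.51 against 5.13 and 5.03. The groups do not overlap in either organ, with differences of group means of −1.18 and −1.25. At 24 h the submerged root arrays read 7.95 and 7.64 beside 7.84 and 8.21 in dark air, and the submerged shoot arrays 9.45 and 10.04 beside 9.96 and 9.67. These later groups overlap. From 7 to 24 h under water it rose by 3.58 in roots (SE 0.23, adjusted p = 3.9e-08) and by 4.66 in shoots (SE 0.23, adjusted p = 3.8e-10).

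The probe set 256266_at read 5.17 and 5.25 in submerged roots at 7 h and 7.45 and 7.32 at 24 h, a rise of 2.17 (SE 0.12, adjusted p = 7.1e-09). In submerged shoots it read 4.52 and 4.71, then 8.67 and 8.85, a rise of 4.15 (SE 0.12, adjusted p = 6.3e-13). In shoots it was lower under water than in dark air at both times, where the arrays read 5.23 and 5.40 at 7 h and 9.66 and 9.74 at 24 h. The dark root arrays at 7 h, 5.23 and 5.15, overlapped with the submerged ones.

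Both 251869_at and AT3G02910 rose in both organs, and the difference between the organs did not pass the test (−0.11, SE 0.20, adjusted p = 0.84, and 0.14, SE 0.29, adjusted p = 0.85). Under water 251869_at went from 6.46 and 6.56 to 9.52 and 9.44 in roots, by 2.97 (SE 0.14, adjusted p = 1.3e-09). In shoots it went from 8.39 on both arrays to 11.39 and 11.56, by 3.08 (SE 0.14, adjusted p = 2.7e-10). It was the member that stood furthest above light after 24 h, by 0.85 in dark roots and 1.57 in dark shoots, and by 0.51 and 1.25 under water. AT3G02910 went from 8.90 and 9.14 to 10.19 and 10.20 in submerged roots, by 1.18 (SE 0.20, adjusted p = 0.00079). In submerged shoots it went from 7.52 and 7.94 to 8.67 and 8.86, by 1.03 (SE 0.20, adjusted p = 0.0016). It was alone among the 16 in having a higher mean under water than in dark air at both times in both organs, by 0.43 and 0.29 in roots and by 0.59 and 0.58 in shoots.

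The calcium channel family gene AT4G15430 read 6.53 and 6.56 in light roots, 4.70 and 5.15 after 7 h in the dark and 6.63 and 6.80 after 24 h. Submerged roots read 5.27 and 5.06, then 6.93 and 6.24 and the groups do not overlap. The rise was 1.42 (SE 0.25, adjusted p = 0.0011), and in shoots, from 4.43 and 5.00 to 6.11 and 6.83, it was 1.76 (SE 0.25, adjusted p = 9.3e-05). On all 20 arrays it lay between 4.43 and 7.19.

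Among the remaining members called in both organs, 260956_at rose by 2.24 in roots and 1.78 in shoots (adjusted p = 3.8e-08 and 1.4e-07) and 252917_at by 1.40 and 2.19 (adjusted p = 6.9e-05 and 2e-07). The probe set 260693_at read 9.11 and 7.88 in submerged roots at 7 h, the least repeatable group of all, and 10.80 and 11.17 at 24 h. Its rise of 2.49 in roots (SE 0.30, adjusted p = 3.5e-05) ranged from 1.87 to 3.11 when a submerged root array was left out. In shoots, where it read 4.87 on both arrays at 7 h and 6.35 and 5.76 at 24 h, the rise was 1.18 (adjusted p = 0.01). That call ended without replicate 1 at 24 h (adjusted p = 0.12) and without replicate 1 or 2 at 7 h (0.052 and 0.058).

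The glycine-rich protein gene AT4G30450 passed narrowly in both organs. It read 10.20 and 10.22 on the submerged root arrays at 7 h and 10.76 and 10.69 at 24 h, a rise of 0.51 (SE 0.15, adjusted p = 0.028). In submerged shoots it read 6.72 and 6.62, then 7.10 and 7.21, a rise of 0.48 (SE 0.15, adjusted p = 0.031). Neither call held when any single submerged array of that organ was left out, the adjusted p then lying between 0.1 and 0.14 for roots and between 0.066 and 0.18 for shoots. In air its rise from 7 to 24 h of darkness had been 1.04 in roots and 0.96 in shoots.

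**Figure D2:**
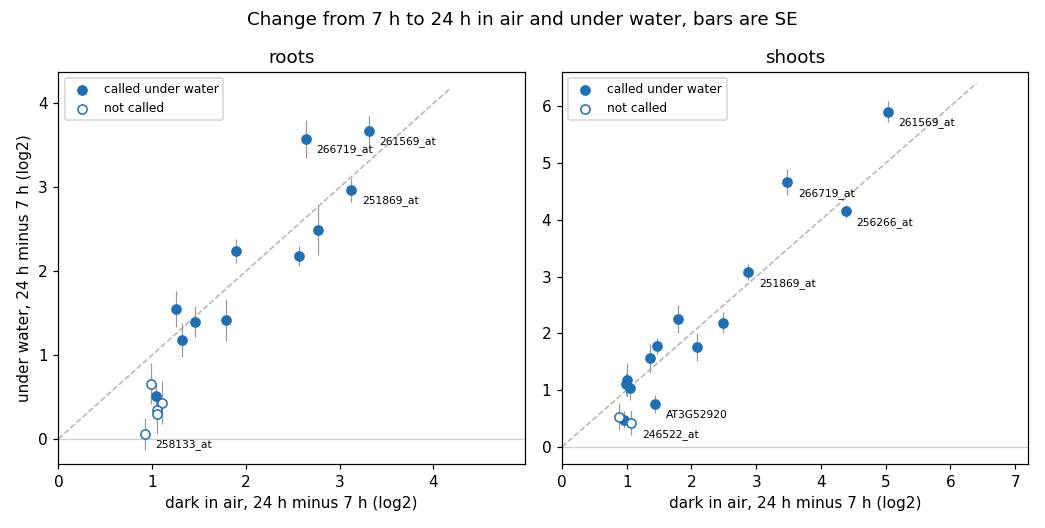
The change from 7 to 24 h in dark air (horizontal axis, log2) is set against the change under water (vertical axis, log2, with the SE of the fit) for the 16 probe sets in roots and shoots; filled points passed the test under water, and the dashed line marks equal change. Points rise along the line, with 12 of 16 below it in roots and 8 of 16 below it in shoots. The point of 258133_at lies near 0 in submerged roots. Change under water minus change in air has a median of −0.30 in roots and 0.05 in shoots. The members were chosen on the change in air, so their place against the line is a description.

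Members that did not pass in submerged roots had small swings there. The probe set 258133_at had the smallest, with 5.95 and 5.65 at 7 h and 5.94 and 5.78 at 24 h, overlapping groups that differ by 0.06 (SE 0.19, adjusted p = 0.9). The others were 261576_at at 0.29 (adjusted p = 0.5), AT3G52920 at 0.35 (adjusted p = 0.17), 252624_at at 0.43 (adjusted p = 0.33) and 248607_at at 0.66 (adjusted p = 0.089). For 4 of these 5 the submerged mean at 7 h was above that of dark air, by 0.34 to 0.89, the exception being 261576_at at −0.04. In shoots 246522_at (0.42, adjusted p = 0.22) and 261576_at (0.53, adjusted p = 0.13) did not pass. The 2 submerged shoot groups of 246522_at overlap, with 5.67 and 6.27 at 7 h and 6.61 and 6.17 at 24 h.

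The DUF662 gene AT3G52920 read 8.44 and 8.08 in submerged roots at 7 h and 8.63 and 8.57 at 24 h. In submerged shoots it read 6.86 and 6.67, then 7.72 and 7.32, and the rise of 0.76 passed (SE 0.16, adjusted p = 0.0023). Its dark shoots had reached 8.56 and 8.57 at 24 h, so the submerged minus dark difference was −1.05. The probe set 252624_at had differences of −1.40 at 7 h and −1.19 at 24 h in shoots, with arrays of 6.31 and 6.67 beside 7.76 and 8.01, then 8.49 and 7.61 beside 9.05 and 9.43. In roots at 7 h it went the other way, with 5.41 and 5.59 under water above 4.89 and 4.32 in dark air.

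Across the 16 members the size of the change under water followed that in air. Pearson's r was 0.94 in roots and 0.96 in shoots, and Spearman's rho 0.92 and 0.89, over 16 probe sets. The points share their arrays and were chosen on the change in air, and probe sets are not independent replicates. The median change in air was 1.39 in roots and 1.45 in shoots. Change under water minus change in air had a median of −0.30 in roots, from −0.86 for 258133_at to 0.94 for 266719_at. In shoots the median was 0.05, from −0.69 for AT3G52920 to 1.18 for 266719_at.

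Under water 6 members changed by different amounts in roots and shoots, by the test of the root change minus the shoot change. The rise was smaller in roots for 5 of 16, against 4.98% of all probe sets called in that direction, and larger in roots for 1 of 16, against 3.26%. The difference was −2.23 for 261569_at (SE 0.25, adjusted p = 3.2e-05), −1.97 for 256266_at (SE 0.17, adjusted p = 2e-06) and −1.59 for 248607_at (SE 0.34, adjusted p = 0.0072). These 3 held without any 1 of the 8 submerged arrays, with adjusted p of up to 0.00036, 2.9e-05 and 0.047. For 248607_at the submerged shoot arrays read 5.51 and 6.06 at 7 h and 8.12 and 7.94 at 24 h, a rise of 2.25 (adjusted p = 4.9e-06), and the root arrays 8.16 and 8.14, then 9.08 and 8.54.

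The other 3 lost the call when single arrays were left out. The probe set 266719_at differed by −1.09 (SE 0.32, adjusted p = 0.045), with an adjusted p of 0.018 without shoot replicate 1 at 24 h and of 0.052 to 0.22 without each of the other 7 submerged arrays. The probe set 258133_at differed by −1.05 (SE 0.27, adjusted p = 0.02). That call was lost without root replicate 2 at 24 h, root replicate 1 at 7 h, either shoot array at 24 h or shoot replicate 1 at 7 h (adjusted p = 0.052 to 0.092). The probe set 246522_at was the one that rose more in roots, by 1.13 (SE 0.31, adjusted p = 0.03), from 7.41 and 7.34 to 9.00 and 8.84 (a root rise of 1.55). It lost the call without any 1 of the 4 root arrays or replicate 2 of shoots at either time (adjusted p = 0.061 to 0.16).

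Levels of the members did not favour one organ. In all 5 conditions 6 had a higher mean in shoots, 6 a higher mean in roots, and 4 changed sides. The named genes AT3G52920, AT3G02910 and AT4G30450 were among the 6 that were higher in roots throughout. The largest gap was that of 260693_at, whose submerged root arrays at 24 h read 10.80 and 11.17 while the submerged shoot arrays read 6.35 and 5.76, a shoot minus root difference of −4.93.

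Submerged tissue was next set against tissue in dark air of the same duration, as a description, because the dark arrays chose the members. At 7 h in roots the median difference was 0.03, with 5 of 16 members having both submerged arrays above both dark arrays (19.9% of all probe sets) and 6 having both below (30.4%). At 24 h in roots the median was −0.23, with 2 above (21.5%) and 8 below (25.6%). In shoots the median was −0.33 at 7 h, with 2 above (24.9%) and 8 below (26.7%), and −0.28 at 24 h, with 3 above (24.6%) and 8 below (28%). Medians over all probe sets lay between −0.04 and −0.01. In members taken by the limit of 1 the 7 h root median was −0.09, and in those taken by 0.6 the 24 h shoot median was −0.09.

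Submerged plants at 7 h were set against light in the same way, as a description, since the light arrays helped choose the members for being high there. Both submerged arrays lay below both light arrays for 16 of 16 members in roots (32.3% of all probe sets) and for 15 in shoots (35.4%), and the groups of 246522_at overlap in shoots. At 24 h the median difference from light was −0.90 in submerged roots and −0.77 in dark roots. In shoots the medians were −0.38 under water and 0.02 in dark air. The member furthest below light in shoots was 248607_at, by −2.76 in dark air and −2.36 under water.

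**Figure D3:**
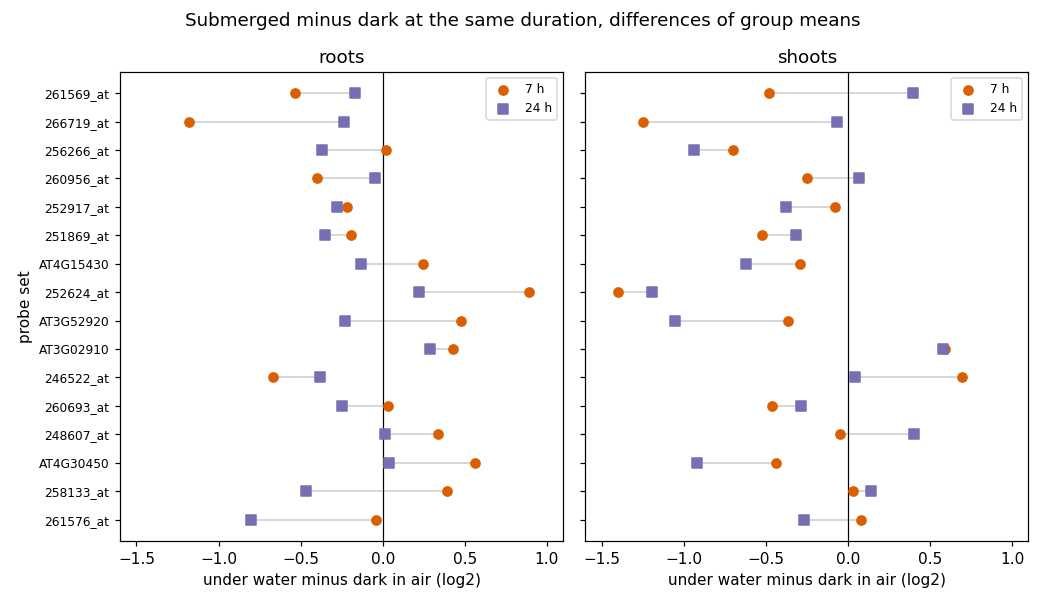
Differences of group means, submerged minus dark air (horizontal axis, log2), for each of the 16 probe sets in roots and shoots; circles are 7 h, squares 24 h, and no test is attached. In roots the 7 h points spread from −1.18 to 0.89 around 0, and in shoots the median is −0.33 at 7 h and −0.28 at 24 h.

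Measured clock genes were few. Of 16 listed genes of the morning clock 2 had a probe set naming 1 gene, of 14 evening genes 3, and of 6 genes of photoperiodic flowering 0, and none of these 5 was a member. None of the 4 named members was on any list. The evening gene GI, which encodes the scaffold protein GIGANTEA, ran opposite to the members. Its shoot arrays read 6.22 and 6.23 in light, 9.08 and 8.91 after 7 h of darkness and 6.51 and 6.19 after 24 h, and under water 8.99 and 9.00, then 6.39 and 5.69. It fell by 2.95 from 7 to 24 h in submerged shoots (SE 0.20, adjusted p = 2e-08). In submerged roots, from 9.47 and 9.25 to 8.59 and 8.62, it fell by 0.75 (adjusted p = 0.016), a call lost without either 24 h array or without replicate 1 at 7 h (adjusted p = 0.081 to 0.12). The fall was smaller in roots, by 2.20 (SE 0.28, adjusted p = 7.8e-05).

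COR27 and AT4G33980, the related gene known as COR28, encode cold- and clock-regulated repressors of the evening. In light COR27 read 4.05 and 3.68 in roots and 3.82 and 3.92 in shoots, far below its dark and submerged arrays, which read 6.82 or more. Thus its 24 h values did not return to the light level. Under water it fell from 7 to 24 h by 1.17 in roots (adjusted p = 0.0002) and by 0.53 in shoots (adjusted p = 0.038), the latter lost without any 1 of the 4 submerged shoot arrays (0.067 to 0.23) and with quantile normalization repeated (0.051). AT4G33980 fell by 1.80 in submerged shoots (SE 0.17, adjusted p = 1.1e-06) and changed by 0.10 in submerged roots (adjusted p = 0.8), a difference of 1.90 between the organs (adjusted p = 9e-05).

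The 2 morning genes with a probe set naming 1 gene belong to the REVEILLE family of clock activators. They did not meet the rule for members in light and darkness. AT4G01280, known as RVE5, rose by 0.68 in submerged shoots (adjusted p = 0.021), from 6.75 and 6.23 to 6.91 and 7.43, a call lost without replicate 2 at 7 or 24 h (0.28 and 0.27). In submerged roots it changed by 0.15 (adjusted p = 0.71). AT5G52660, known as RVE6, changed by 0.25 in submerged roots (adjusted p = 0.35) and 0.08 in submerged shoots (adjusted p = 0.8). From 7 to 24 h of darkness RVE5 changed by 0.53 in roots (SE 0.20, adjusted p = 0.063) and 0.22 in shoots (adjusted p = 0.53). RVE6 changed by 0.33 in roots (SE 0.15, adjusted p = 0.14) and −0.02 in shoots (adjusted p = 0.97), and neither gene passed. At 0 h in light the group means of both genes were below those at 7 h of darkness in both organs, opposite to the members. In roots the light arrays of RVE6 read 7.07 and 6.93 and the dark arrays 7.89 and 7.39, a light minus dark difference of −0.64 (SE 0.15, adjusted p = 0.002) that did not pass without dark replicate 1 (0.059). That of RVE5 in roots was −0.54 (adjusted p = 0.031), lost without dark replicate 1 (0.24) or light replicate 2 (0.3). In shoots RVE6 differed by −0.47 (adjusted p = 0.016), lost without dark replicate 1 (0.1) or light replicate 1 (0.25), and RVE5 by −0.32 (adjusted p = 0.2). In shoots at 7 h both genes were also lower under water than in dark air. For RVE5 the submerged arrays read 6.75 and 6.23 and the dark arrays 7.30 on both, a difference of −0.81 (SE 0.20, adjusted p = 0.0084). It held without submerged replicate 1 (0.0038) and not without submerged replicate 2 (0.17) or dark replicate 1 or 2 (0.056 and, just above the threshold, 0.05). For RVE6 the difference was −0.49 (adjusted p = 0.042), lost without any 1 of the 4 arrays (0.094 to 0.23).

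**Figure D4:**
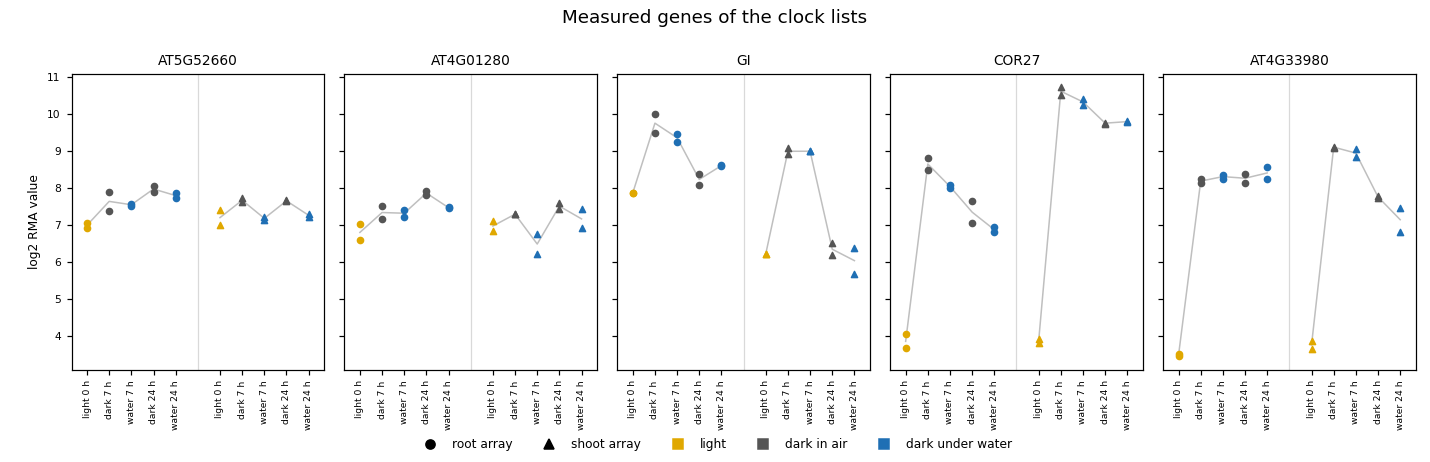
Log2 RMA values of the 5 measured genes of the clock lists, drawn as for the 16 probe sets, with conditions in roots (circles) and shoots (triangles) along the horizontal axis, single arrays as points and a line through group means. GI is high at 7 h in air and under water and falls by 24 h, by 2.95 in submerged shoots, while COR27 and AT4G33980 lie at 4.05 or less in light and at 6.82 or more elsewhere.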

How the data were processed

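Arrays were Affymetrix ATH1. The authors deposited log2 values per probe set made with RMA in the affy package, per the submitters' processing notes, which give no version. No genome build is given in the sources used here. Values were used as deposited. Of 22810 probe sets, 64 controls were left out and 22746 tested. The probe table listed 14016 probe sets, 13513 with 1 gene, of which 13436 matched a TAIR10.1 RefSeq locus, and 8730 tested probe sets had no name.

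All 20 arrays were fitted with limma 3.58.1 in R 4.3.3 (10 group means, 10 residual and 7.04 prior degrees of freedom). P-values are two-sided, adjusted by Benjamini and Hochberg over all probe sets, with a threshold of 0.05. The members and gene lists were chosen with earlier results of these data known. The rule for names took all 1-gene members, clock genes with a 1-gene probe set and probe sets next to the limit. Unnamed members are given by number. The fit was tried on simulated arrays of submerged roots, 24 h against 7 h, with 22746 probe sets. It called 15 of 80 changes of 0.5, 49 of 54 of 1 and 66 of 66 of 2. Of 22546 unchanged probe sets it called 11. Only 200 probe sets were changed there, while in the data 1297 were called higher and 1837 lower. The adjustment was therefore stricter in the simulation, and its shares do not carry over to the data. The alternatives were a low-value filter, other scalings, another variance model, single-tissue fits, a 2-fold minimum, other limits of the rule, the replicate number as a block, and each array left out. For the 2 morning genes at 7 h, leaving out each array was added after the data were seen. A planned search of promoters for motifs was not made.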

Additional observations from a re-analysis of the deposited data

Results flagged for a closer look

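The change from 7 to 24 h under water differed between roots and shoots, by a test of the difference itself, for 6 of the 16 probe sets and 2 clock genes. Of all probe sets 4.98% were called with a negative root minus shoot difference and 3.26% with a positive one. The root minus shoot difference was −2.23 for 261569_at, −1.97 for 256266_at, −1.59 for 248607_at, −1.09 for 266719_at and −1.05 for 258133_at, all rising less in roots. It was 1.13 for 246522_at, which rose more in roots. It was 2.20 for GI and 1.90 for AT4G33980, which fell less or not at all in roots. The calls of 266719_at, 258133_at and 246522_at were lost when some single submerged arrays were left out. What causes the root minus shoot differences was not tested.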

How the results depend on the processing

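With 2 arrays a group, precision was limited by their number, and in fits without 1 array the lone array was assumed to vary like the other groups. The number of members was 35 with a limit of 0.6 and 12 with a limit of 1, and 15 to 25 without 1 array. Called rises under water numbered 10 or 11 in roots and 12 to 14 in shoots over all alternatives run. For root minus shoot differences, members higher numbered 2 with median centring and 0 to 2 without 1 array, and members lower 3 to 5 without 1 array. The median submerged minus dark difference in shoots at 24 h was −0.0918 with a limit of 0.6. Without 1 array, small changes crossed 0: 258133_at in roots (−0.0912 to 0.21), AT4G33980 in roots (−0.0545 to 0.25), and the root minus shoot difference of AT4G15430 (−0.70 to 0.0208), AT3G02910 (−0.0643 to 0.35) and AT4G30450 (−0.0264 to 0.0894).

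Arrays of the same replicate number shared little deviation: over 45 pairs of groups the deviations of replicate 1 correlated between −0.14 and 0.16. That does not show that the numbers carry no pairing, and the main fit treated the arrays as unpaired. With the replicate number as a block 11 members were called higher in roots and 14 in shoots, and 4 differed downward between organs, with 266719_at lost (adjusted p = 0.055). The rule asked of each replicate number as a block of its own left 11 members.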
